A study of Mus musculus with 18 samples.

Results

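Cell cycle and mitosis genes were followed in the small intestine and liver of young germ-free mice that had been colonised with gut microbiota from old or from young donors. The set was a list of 40 genes, and a gene counted as measured if a probe set of the array carried its symbol and no other. This gave 38 measured members among 22180 genes, namely 14 of 15 S-phase members, 23 of 24 mitotic members and the G1 cyclin Ccnd1. No probe set with a single symbol was used here for Ccne2 or Ccnb1.

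In OMT mice the transplanted microbiota came from donors aged about 24 months, and in YMT mice from young donors, whose age the labels give as 4 weeks in one place and 5 to 6 weeks in another. All recipients, OMT and YMT alike, were C57BL/6 animals that were germ-free and 5 to 6 weeks old at the transfer, and tissue was taken 8 weeks later, at an age labelled 12 or 13 weeks. Each tissue had 5 OMT and 4 YMT arrays, 1 per biological replicate. How many donors or cages stood behind a group was not used here, so a shared donor or cage cannot be told apart from donor age, and no group without a transplant was analysed here. Levels are RMA log2 array values, a difference is OMT minus YMT on that log2 scale, and an adjusted p is that of limma with Benjamini-Hochberg adjustment over all genes tested in the tissue. Precision is limited by how many arrays each group has.

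Division proceeds from G1, in which D-type cyclins with Cdk4 or Cdk6 release E2F transcription factors, to S phase, in which the Mcm2 to Mcm7 helicase opens DNA and enzymes such as ribonucleotide reductase supply nucleotides. It ends with mitosis, driven by Cdk1 with B-type cyclins and closed by the anaphase-promoting complex with Cdc20. In the small intestine these genes are active mainly in crypt cells, which renew the epithelium, whereas most hepatocytes of an adult liver are quiescent. In samples of whole tissue, fewer dividing cells and less of a transcript per cell cannot be told apart.

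The tissues carried their labels' markers. The mean log2 level of 10 hepatocyte markers lay between 11.09 and 11.25 on OMT liver arrays and between 11.10 and 11.14 on YMT liver arrays, and that of 10 enterocyte markers lay between 12.05 and 12.21 on OMT intestine arrays and between 11.64 and 12.14 on YMT intestine arrays. All 38 measured members passed the level filter in the intestine, under which a gene had to exceed the median of its array on 4 or more of 9 arrays. In the liver 16 passed, 12 of them S-phase members, 3 mitotic members and Ccnd1. Array medians were 4.42 to 4.51 in OMT and 4.39 to 4.45 in YMT intestines, and 4.13 to 4.22 in OMT and 4.12 to 4.19 in YMT livers. The mean level of snoRNA probe sets was highest on OMT intestine replicates 1 and 2, at 8.24 and 7.78, and lay between 6.95 and 7.41 on the other OMT intestines and between 6.87 and 7.33 on YMT intestines. In livers it was highest on OMT replicate 4, at 7.46, with 6.87 and 6.98 on OMT replicates 1 and 2 and 6.60 to 7.06 in YMT.

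In the small intestine, every one of the 23 measured mitotic members had a lower mean in OMT than in YMT recipients, and the cyclin Ccnb2 and the anaphase activator Cdc20 passed the test. The G1 cyclin Ccnd1 also fell, while none of the 14 S-phase members passed. Thus 3 of 38 members were lower and none higher at an adjusted p under 0.05, where 3.1% of all 13238 genes tested were lower and 1.04% higher. The split of all calls, 410 lower and 138 higher, was 398 and 211 after quantile normalization within the tissue. At an unadjusted p under 0.05, 18 mitotic members, 2 S-phase members and Ccnd1 were lower and none higher, against 9.7% of all 22180 genes lower and 6.56% higher. The median difference was -0.52 over mitotic members and -0.22 over S-phase members, beside 0.01 over all genes. The members share their arrays, so these counts are not independent observations. Genes called in either direction made up 4.14% of those tested.

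The promoters of Ccnb2 and Cdc20, the mitotic members that fell, are shown because genes of this class commonly carry CCAAT boxes, bound by NF-Y, with a cell cycle homology region (CHR), read by the DREAM and MuvB complexes. Those of Cdk2 and Rrm2, the S-phase members that fell in the liver, are shown for comparison, since S-phase genes commonly carry E2F elements. The 250 bases before the annotated start are given 5′ to 3′ on the gene's strand from RefSeq (GRCm38.p6), with matches in capitals. The CHR was searched on both strands as TTTGAA, with the form TTTAAA and the form TTCGAA counted apart, and the box as CCAAT. The E2F element was searched on both strands as TTCCCGC, as the variant TTCGCGC, as the variant TTGCCGC or as the variant TTGGCGC. A capital stretch may be the reverse complement of its motif. The windows are chr9:70421555-70421804 (minus strand) for Ccnb2, chr4:118437344-118437593 (minus strand) for Cdc20, chr10:128705052-128705301 (minus strand) for Cdk2 and chr12:24708004-24708253 (plus strand) for Rrm2.
Ccnb2: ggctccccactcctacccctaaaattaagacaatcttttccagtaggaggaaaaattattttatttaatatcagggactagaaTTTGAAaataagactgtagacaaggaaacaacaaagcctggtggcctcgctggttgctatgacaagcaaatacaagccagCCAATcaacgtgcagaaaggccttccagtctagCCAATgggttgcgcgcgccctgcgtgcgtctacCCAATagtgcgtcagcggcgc
Cdc20: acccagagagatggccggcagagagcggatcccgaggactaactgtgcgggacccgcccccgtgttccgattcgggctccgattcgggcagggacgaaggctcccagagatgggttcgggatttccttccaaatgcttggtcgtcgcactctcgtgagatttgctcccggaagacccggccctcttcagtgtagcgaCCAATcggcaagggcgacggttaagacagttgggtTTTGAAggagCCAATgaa
Cdk2: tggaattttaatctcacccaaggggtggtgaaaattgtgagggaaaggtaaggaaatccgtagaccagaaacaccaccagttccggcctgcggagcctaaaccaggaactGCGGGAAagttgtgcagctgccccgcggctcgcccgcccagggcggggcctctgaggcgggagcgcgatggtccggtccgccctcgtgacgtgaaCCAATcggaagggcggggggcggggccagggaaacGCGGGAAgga
Rrm2: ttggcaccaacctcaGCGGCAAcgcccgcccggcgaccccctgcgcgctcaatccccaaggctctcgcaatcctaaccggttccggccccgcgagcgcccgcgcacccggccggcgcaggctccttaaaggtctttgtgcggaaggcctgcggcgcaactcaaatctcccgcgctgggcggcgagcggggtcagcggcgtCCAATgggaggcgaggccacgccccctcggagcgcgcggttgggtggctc

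Upstream of Ccnb2 there were 3 CCAAT boxes, whose first bases lay 87, 54 and 21 bases before the start, and 1 TTTGAA match at 167 bases. Cdc20 had 2 CCAAT boxes, at 53 and 8 bases, and 1 TTTGAA match between them at 18 bases. Cdk2 had 1 CCAAT box and 2 E2F matches, and Rrm2 had 1 of each. The spacing is shown in the map of motif matches. A promoter was listed for 30 of the 38 measured members, 17 mitotic and 13 S-phase. The 14 S-phase promoters counted below include an extra promoter of Mcm7, and each Mcm7 promoter held an E2F match. The TTTGAA form was found in 6 of 17 mitotic promoters, 1 of 14 S-phase promoters and 16% of the 32851 promoters of the same length, and TTTAAA in 3, 3 and 12.1%. The TTCGAA form was in 2 mitotic promoters, 1 S-phase promoter and 1.34% of all promoters. A CCAAT box was present in 15 of 17 mitotic and 10 of 14 S-phase promoters, against 33.8% of all. An E2F match was present in 2 of 17 mitotic and 8 of 14 S-phase promoters, against 7.89% of all. These are matches of letters, not sites of binding.

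**Figure D1:**
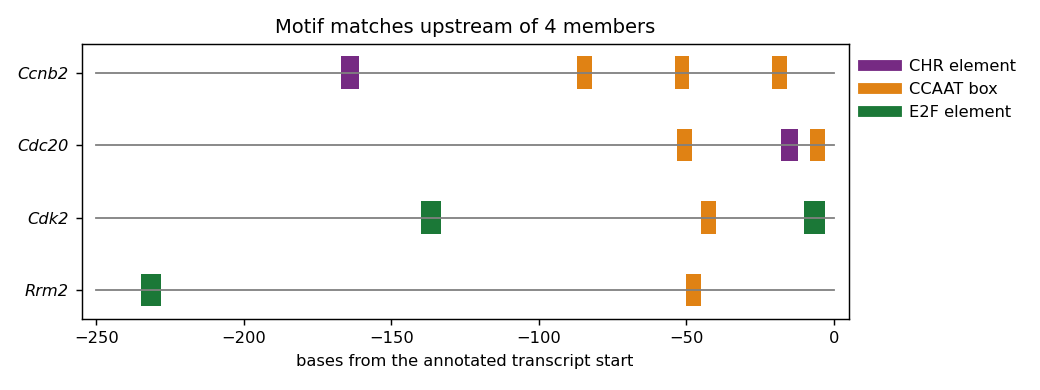
Motif matches in the 250 bases before the annotated start of 4 members, one line per gene, with bars for matches and the x axis in bases from the start. Ccnb2 and Cdc20 carry CCAAT boxes with a CHR match, Cdk2 and Rrm2 a CCAAT box with E2F matches.

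Ccnb2 (probe set 17528586) encodes cyclin B2, a partner of Cdk1 at entry into mitosis. Its log2 levels were 6.17, 6.16, 6.19, 6.77 and 6.76 on OMT replicates 1 to 5, against 7.83, 7.41, 6.92 and 7.87 on YMT replicates 1 to 4. Every OMT intestine lay below every YMT intestine, OMT replicates 4 and 5 and YMT replicate 3 lying closest to each other. The level was 6.41 ± 0.32 in OMT and 7.51 ± 0.44 in YMT (SD, n = 5 and 4), a difference of -1.10 ± 0.22 (SE), or 2.14-fold lower (adjusted p = 0.0254). Cdc20 (probe set 17429177), which activates the anaphase-promoting complex, had levels of 6.23, 6.36, 6.39, 6.85 and 6.42 in OMT and 7.80, 7.23, 6.85 and 7.53 in YMT. The groups met at a single shared value, on OMT replicate 4 and YMT replicate 3. The difference was -0.90 ± 0.19, or 1.87-fold lower (adjusted p = 0.0296).

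The call of Ccnb2 was lost without OMT replicate 1, 2 or 3 or YMT replicate 1, 2 or 4, with differences of -1.13 to -0.98 and adjusted p-values of 0.0516 to 0.0715. That of Cdc20 was lost without OMT replicate 1, 2, 3 or 5 or YMT replicate 1, 2 or 4, with differences of -0.94 to -0.75 and adjusted p-values of 0.0509 to 0.0829. Without OMT replicates 1 and 2 together, the arrays of highest snoRNA level, Ccnb2 was at -0.93 (adjusted p = 0.129) and Cdc20 at -0.80 (adjusted p = 0.138), and all 23 mitotic members kept a lower OMT mean. With the replicate number as a block Cdc20 lost its call (adjusted p = 0.0532). Adjusted p-values over all alternatives ranged from 0.000705 to 0.129 for Ccnb2 and from 0.00102 to 0.138 for Cdc20. The lowest of each came from the fit of all 18 arrays, which shares 1 estimate of spread between the tissues.

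Of the mitotic members that missed the threshold, the spindle protein Nusap1 came nearest, with log2 levels of 5.82, 5.90, 5.51, 6.18 and 6.19 in OMT and 6.70, 6.37, 6.31 and 7.06 in YMT. The groups did not overlap, and the difference was -0.69 ± 0.18 (adjusted p = 0.0599). Cdc25c, the phosphatase that activates Cdk1, did not overlap between groups either, at -0.57 (adjusted p = 0.0838). Groups without overlap, OMT below YMT, were thus found for 3 of 23 mitotic members, none of 14 S-phase members and Ccnd1, beside 4.21% of all genes. No member had every OMT array above every YMT array, which 2.04% of all genes did. Mki67, whose product Ki-67 marks cycling cells, had levels of 7.99, 8.34, 8.04, 8.69 and 8.78 in OMT and 9.19, 8.61, 8.36 and 9.10 in YMT. These overlapped, and the difference was -0.45 ± 0.22 (adjusted p = 0.248). The 23 mitotic differences ran from -1.10 for Ccnb2 to -0.30 for Cdca8, a subunit of the chromosomal passenger complex.

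Other differences of similar size by point estimate, none past the threshold, were those of the cyclin Ccna2 (-0.83), the mitotic kinase Plk1 (-0.73), the kinesin Kif11 (-0.68), which pushes spindle poles apart, and the kinase Aurka (-0.64). Tpx2, the activator of Aurka, was at -0.58. Kinetochore and checkpoint members were at -0.53 (Cenpe), -0.48 (Bub1b), -0.47 (Bub1), -0.37 (Cenpf) and -0.33 (Ttk). Members of the passenger complex beside Cdca8 were at -0.53 (Aurkb) and -0.49 (Birc5), and the kinesins of cytokinesis at -0.52 (Kif23) and -0.45 (Kif20a). Cdk1 itself was at -0.51, the topoisomerase Top2a at -0.42 and Foxm1, a transcription factor of mitotic genes, at -0.32. Their adjusted p-values lay above the threshold throughout.

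**Figure D2:**
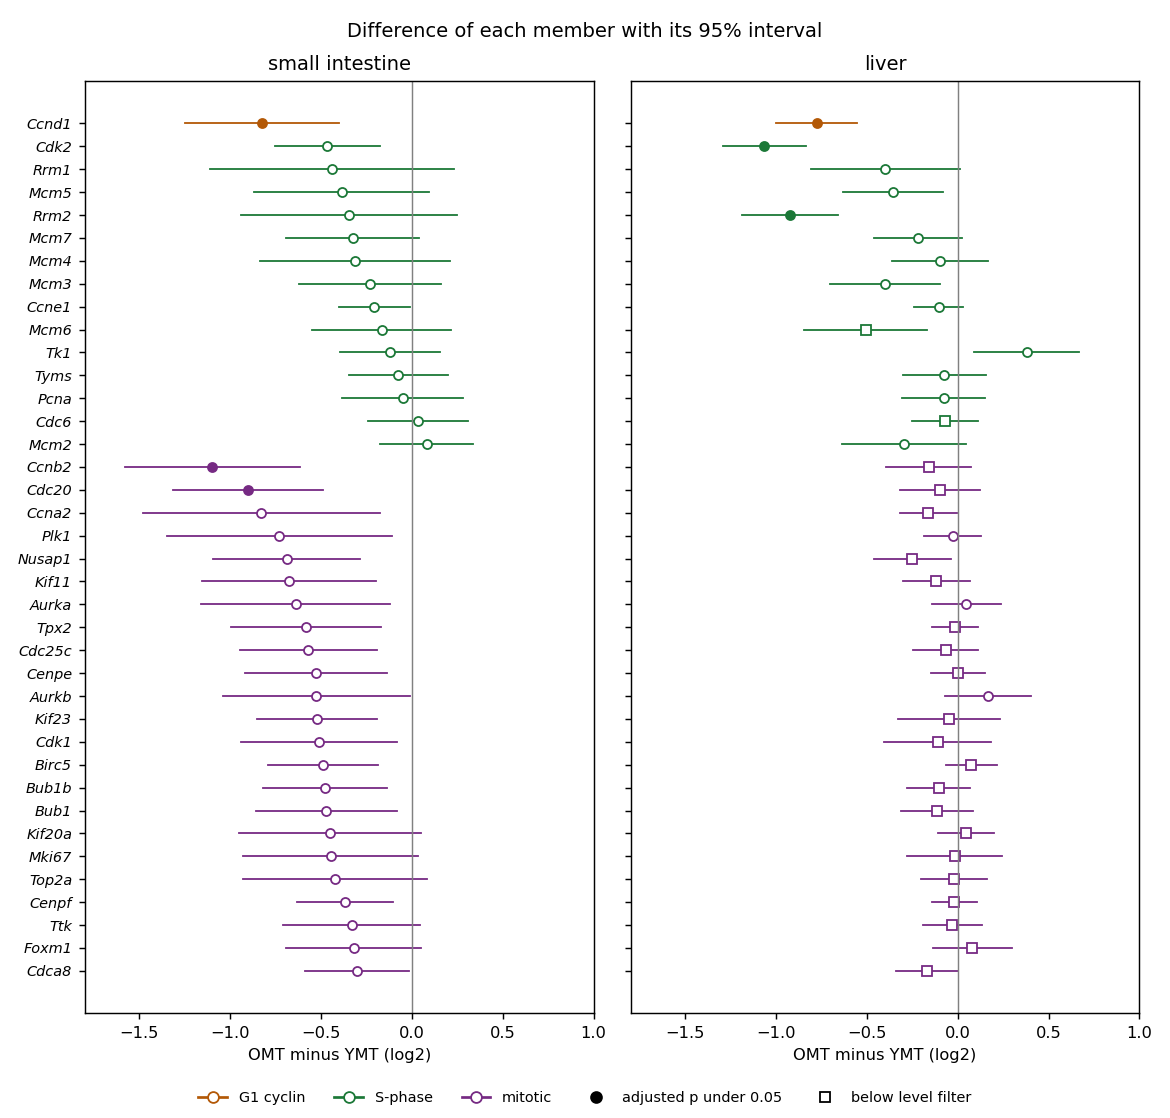
Difference of OMT minus YMT on the log2 scale for each of the 38 measured members (points) with its 95% interval (lines), in the small intestine and the liver. All 23 mitotic members lie left of 0 in the intestine, from -1.10 to -0.30, and between -0.25 and 0.17 in the liver, where squares mark members under the level filter.

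Ccnd1 (probe set 17498502), the cyclin D1 of the G1 phase, had intestinal log2 levels of 7.65, 8.29, 8.13, 8.14 and 8.13 in OMT and 8.59, 8.78, 8.70 and 9.51 in YMT. All OMT values lay below all YMT values, with OMT replicate 1 the lowest and YMT replicate 4 the highest. The level was 8.07 ± 0.24 in OMT and 8.90 ± 0.42 in YMT, a difference of -0.83 ± 0.19, or 1.77-fold lower (adjusted p = 0.0409). The call was lost without any 1 of the 9 intestine arrays (OMT replicates 1 to 5 and YMT replicates 1 to 4), at differences of -0.93 to -0.62 and adjusted p-values of 0.053 to 0.0991, and with no level filter (adjusted p = 0.0652).

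S-phase members of the intestine were closer to 0, with 12 of 14 lower in OMT by their means, where 46.5% of all genes were. After quantile normalization within the tissue these were 11 of 14 and 52.7%, and after median centring 13 of 14 and 59.9%. Cdk2, the kinase of cyclins E and A, had the smallest p, with log2 levels of 6.27, 6.07, 6.20, 6.49 and 6.54 in OMT and 7.05, 6.76, 6.49 and 6.82 in YMT. OMT replicate 5 lay above YMT replicate 3 and OMT replicate 4 level with it, and the difference was -0.47 ± 0.13 (adjusted p = 0.07). Ccne1, cyclin E1, had levels of 6.17, 6.02, 6.28, 6.26 and 6.24 in OMT and 6.37, 6.24, 6.39 and 6.60 in YMT, which overlapped at -0.21 ± 0.09 (adjusted p = 0.202). Mcm7, a helicase subunit, was at 5.87, 6.15, 6.05, 6.38 and 6.57 in OMT and 6.82, 6.31, 6.26 and 6.73 in YMT (-0.33 ± 0.16, adjusted p = 0.266). Here OMT replicates 4 and 5 lay above YMT replicates 2 and 3.

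Pcna, the sliding clamp of the polymerases, was at 8.23, 7.98, 8.43, 8.75 and 8.64 in OMT and 8.64, 8.32, 8.37 and 8.50 in YMT. The 95% interval of its difference, -0.39 to 0.28, contains 0. Of the 23 mitotic differences 4 lie within that interval and 19 below it. Apart from Ccnb2 and Cdc20, the mitotic members have 95% intervals of their own that overlap it. The S-phase Cdk2 (-0.466) and Rrm1 (-0.4375) also lie below it and Mcm5 (-0.387) at its edge, so no contrast of the classes is read from it. Of the other helicase subunits Mcm5 was at -0.39, Mcm4 at -0.31, Mcm3 at -0.23, Mcm6 at -0.17 and Mcm2 at 0.08. The ribonucleotide reductase subunits Rrm1 and Rrm2 were at -0.44 and -0.35, the thymidylate enzymes Tk1 and Tyms at -0.12 and -0.07, and the helicase loader Cdc6 at 0.03. None of these passed.

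**Figure D3:**
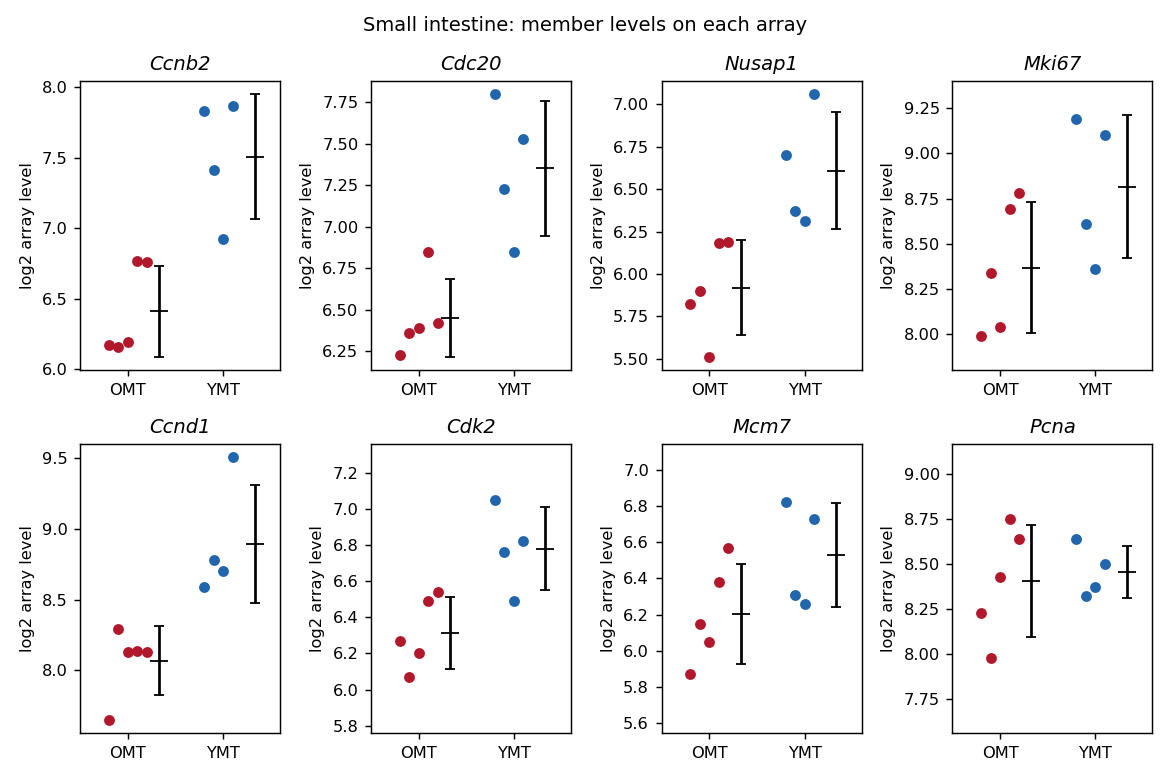
Log2 array levels of 8 members in the small intestine, 1 point per array, with OMT left of YMT and the mean ± SD beside the points, each panel having its own axis. For Ccnb2, Nusap1 and Ccnd1 all OMT points lie under all YMT points, and for Pcna the groups overlap throughout.

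The mean log2 level over the 23 mitotic members was 5.82, 6.00, 5.82, 6.41 and 6.32 on OMT replicates 1 to 5 and 6.93, 6.42, 6.30 and 6.88 on YMT replicates 1 to 4. OMT replicates 4 and 5 thus lay about level with YMT replicates 2 and 3, and YMT replicates 1 and 4 stood highest. Over the 14 S-phase members the mean was 6.08, 6.19, 6.24, 6.61 and 6.68 in OMT and 6.76, 6.45, 6.30 and 6.80 in YMT, so the groups overlapped widely. Taking the mitotic mean from the S-phase mean on the same array gave 0.26, 0.19, 0.42, 0.21 and 0.36 in OMT and -0.17, 0.03, 0.00 and -0.09 in YMT. On that scale every OMT intestine lay above every YMT intestine. The median over S-phase members of OMT minus YMT exceeded that over mitotic members by 0.30. This is a description, for which no test is given because the members were chosen with results of these data known. The excess was 0.20 without YMT replicate 1, 0.37 without OMT replicates 1 and 2, and 0.29 to 0.35 under the other scalings, summaries, member classes and pairing tried.

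**Figure D4:**
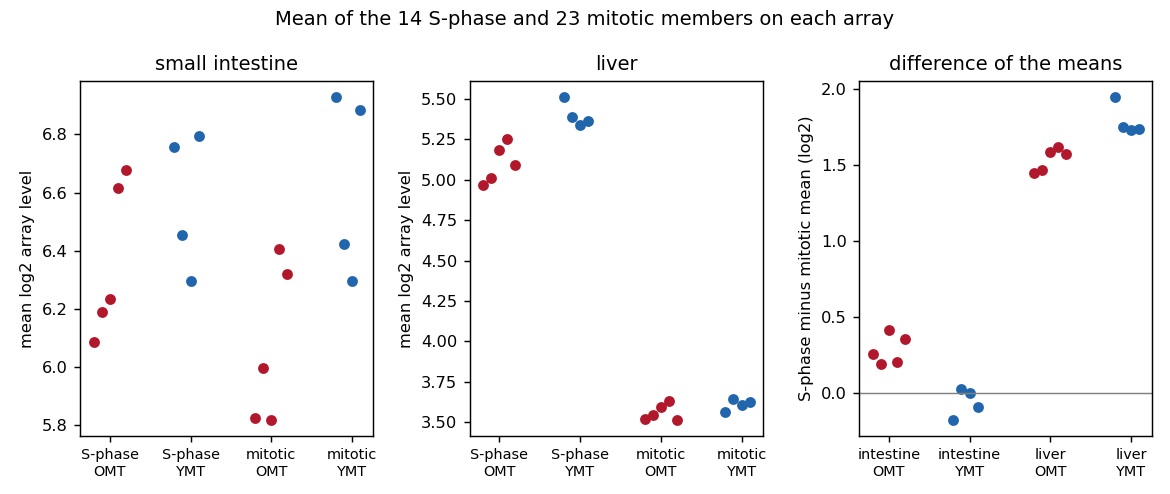
Mean log2 level of the 14 S-phase and 23 mitotic members on each array (points) in the small intestine and liver, and the difference of these means, with OMT left of YMT in each pair. The difference is higher in OMT than in YMT intestines on every array and lower in OMT than in YMT livers on every array.

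Genes outside the set were read from lists of the same pathway, where 3.1% of all genes tested in the intestine were lower and 1.04% higher. Of 35 other mitosis genes measured in the intestine, Hmmr, which binds hyaluronan and the spindle, fell (-0.63 ± 0.15, adjusted p = 0.0498) and none rose. Its groups overlapped, and the call was lost with no level filter (adjusted p = 0.0796). By their means 34 of the 35 were lower in OMT, with a median difference of -0.42. Of 30 other replication genes none passed, 23 were lower by their means and the median was -0.11. Among 20 cell cycle inhibitors and brakes and 6 G1 cyclins and kinases other than Ccnd1, none passed in the intestine, with medians of -0.12 and -0.27.

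Marker lists of other intestinal cell types were read beside these genes. The mean log2 level of 9 crypt stem cell markers was 6.50 to 7.17 in OMT and 6.87 to 7.33 in YMT intestines, with 8 of 9 lower by their means and none past the test. For 8 goblet cell markers it was 10.51 to 11.12 in OMT and 11.08 to 11.37 in YMT, and Clca1 fell (-0.82 ± 0.16, adjusted p = 0.0245). T cell markers were at 5.96 to 6.37 in OMT and 6.41 to 6.69 in YMT, with 7 of 7 lower by their means and none past the test. The 5 markers of germinal centre B cells, which also divide, were at 5.43 to 5.51 in OMT and 5.71 to 5.81 in YMT, with 3 of 5 lower by their means and a median difference of -0.05. Of these the death receptor Fas fell by 1.31 ± 0.13 (adjusted p = 0.00214), a gene that many cells express, and none of the others passed. Erythroid precursor markers went the other way by their means, at 5.25 to 5.36 in OMT and 4.93 to 5.16 in YMT, with none of 4 lower and none past the test. The lists of B cells (4.48 to 5.08 in OMT and 4.61 to 5.45 in YMT), Paneth cells (9.40 to 10.06 in OMT and 9.54 to 10.28 in YMT), plasma cells (6.38 to 6.77 in OMT and 6.54 to 7.05 in YMT) and enteroendocrine cells (6.27 to 6.65 in OMT and 6.46 to 6.73 in YMT) overlapped between groups. So did those of macrophages (4.58 to 5.12 in OMT and 4.87 to 5.21 in YMT), endothelium (4.57 to 5.05 in OMT and 4.63 to 5.46 in YMT), fibroblasts (4.76 to 5.20 in OMT and 4.90 to 5.62 in YMT) and smooth muscle (5.17 to 5.91 in OMT and 5.33 to 5.75 in YMT). The part of these markers, and of the snoRNA level, in the member differences was not tested.

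In the liver, Ccnd1, Cdk2 and Rrm2 fell in OMT recipients, and the mitotic members lay near or below the array median in both groups. These were 3 falls and no rise among 38 measured members, of which the 16 past the level filter were tested. The share to set beside these 16 is that of all 13380 genes tested, of which 8.78% were lower and 10.4% higher. Nothing further is read from the members' count, which is small and comes from members that share their arrays. Genes called in either direction were 19.2% of those tested. At an unadjusted p under 0.05, 8 members were lower and 1 higher, against 11% and 11.4% of all genes. After quantile normalization within the tissue the split of all calls, 1175 lower and 1388 higher, was 1492 and 1156. All 3 calls held with each array left out in turn, OMT replicate 4 of highest liver snoRNA level included. They also held without OMT replicates 1 and 2 together, which are not the livers of highest snoRNA level.

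Cdk2 (probe set 17246299) had liver log2 levels of 5.35, 5.19, 5.07, 5.18 and 4.88 in OMT and 6.36, 6.01, 6.17 and 6.25 in YMT. The groups were separated by more than the range of either. The level was 5.13 ± 0.17 in OMT and 6.20 ± 0.15 in YMT, a difference of -1.06 ± 0.10, or 2.09-fold lower (adjusted p = 8.81e-05). Rrm2 (probe set 17274540), the small subunit of ribonucleotide reductase, had levels of 4.38, 4.31, 4.44, 4.89 and 4.33 in OMT and 5.51, 5.46, 5.30 and 5.30 in YMT. Its difference was -0.92 ± 0.12, or 1.90-fold lower (adjusted p = 0.000473), and the OMT values lay close to the array medians. Ccnd1 had levels of 5.54, 5.80, 5.31, 5.35 and 5.47 in OMT and 6.26, 6.17, 6.35 and 6.30 in YMT. It differed by -0.78 ± 0.10, or 1.71-fold lower (adjusted p = 0.000481).

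Tk1, which recycles thymidine, went the other way by its mean, with liver log2 levels of 6.75, 6.74, 6.32, 6.40 and 6.18 in OMT and 5.90, 6.18, 6.26 and 6.05 in YMT. OMT replicate 5 lay within the YMT range, and the difference of 0.38 ± 0.13 did not pass (adjusted p = 0.0657). It passed without OMT replicate 5, at 0.46 (adjusted p = 0.0377). It also passed with the level filter at the 75th percentile (adjusted p = 0.0468) and with all 18 arrays in the fit (adjusted p = 0.0492). Without OMT replicates 1 and 2 it was at 0.20, and the adjusted p ranged from 0.0377 to 0.235 over the alternatives. Pcna was at 7.27, 7.10, 7.58, 7.57 and 7.38 in OMT and 7.37, 7.55, 7.44 and 7.47 in YMT, a difference of -0.08 with a 95% interval of -0.31 to 0.15. By their means 13 of 14 S-phase members were lower in OMT livers, beside 53.7% of all genes. The count was the same after quantile normalization within the tissue, beside 62.2%, and after median centring, beside 60.7%. The median S-phase difference was -0.26, or -0.14 without OMT replicates 1 and 2 and -0.15 without YMT replicate 1. Other S-phase members ranged from -0.51 for Mcm6, which did not reach the level filter, to -0.07 for Cdc6, with Mcm3 at -0.40 (adjusted p = 0.0663) and Mcm5 at -0.36 (adjusted p = 0.0699).

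Only 3 of 23 mitotic members passed the level filter in the liver, and none passed the test. Aurkb was at 4.14, 4.19, 4.63, 4.43 and 4.19 in OMT and 4.02, 4.15, 4.19 and 4.24 in YMT (0.17 ± 0.11, adjusted p = 0.316). Aurka was at 4.54, 4.46, 4.56, 4.83 and 4.56 in OMT and 4.42, 4.56, 4.56 and 4.63 in YMT (0.05 ± 0.09, adjusted p = 0.744). Plk1 was at 4.30, 4.18, 4.31, 4.30 and 4.38 in OMT and 4.32, 4.34, 4.43 and 4.20 in YMT (-0.03 ± 0.07, adjusted p = 0.817). These 3 kinase genes overlapped between groups. Mki67 was at 3.97, 3.64, 3.79, 3.79 and 3.54 in OMT and 3.45, 3.98, 3.83 and 3.79 in YMT, below the array median on all 9 arrays. The 23 mitotic differences lay between -0.25 (Nusap1) and 0.17 (Aurkb), with a median of -0.03 beside -0.02 over all genes. Groups without overlap, OMT below YMT, were found for Cdk2, Rrm2, Ccne1 and the mitotic Ccna2 beside Ccnd1, 5 of 38 members against 5.53% of all genes, and Ccna2 (2.64 to 2.81 in OMT and 2.83 to 3.02 in YMT) was under the array median throughout.

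The mean log2 level of the 14 S-phase members in liver was 4.97, 5.01, 5.18, 5.25 and 5.09 in OMT and 5.51, 5.39, 5.34 and 5.37 in YMT. Each OMT liver lay below each YMT liver. The separation of this mean rests in part on the called Cdk2 (-1.06) and Rrm2 (-0.92). Of the other S-phase members only Ccne1 had groups without overlap, so the mean does not speak for each member. The S-phase mean less the mitotic mean was 1.45, 1.47, 1.59, 1.62 and 1.58 in OMT and 1.95, 1.75, 1.73 and 1.74 in YMT, again with no overlap. Of the 23 mitotic members 20 were under the level filter in liver, 16 of them below the array median on all 9 arrays, so this value is not set against that of the intestine. The median over S-phase members of OMT minus YMT was below that over mitotic members by -0.23, and by -0.11 without YMT replicate 1 or -0.12 without OMT replicates 1 and 2. No test is given, as before. Over members past the level filter alone, of which 3 were mitotic, the value was -0.30.

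**Figure D5:**
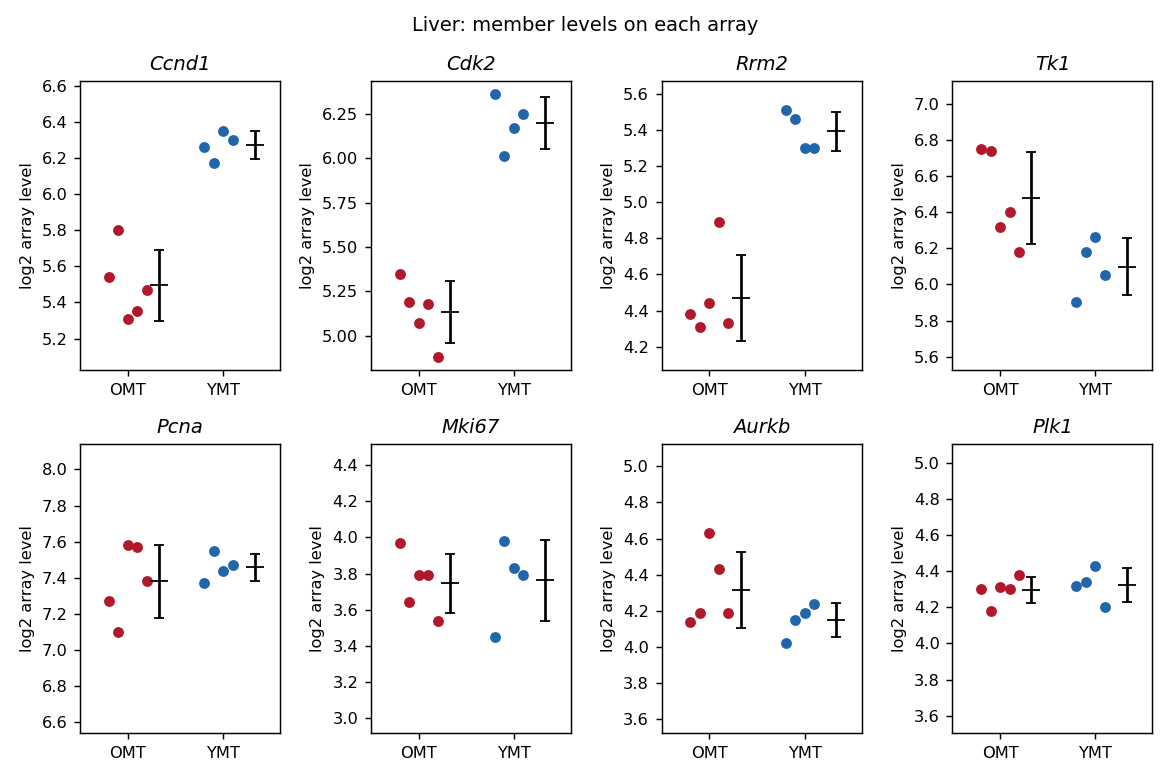
Log2 array levels of 8 members in the liver, 1 point per array, with OMT left of YMT and the mean ± SD beside the points, each panel having its own axis. Ccnd1, Cdk2 and Rrm2 lie lower on every OMT array than on any YMT array, while Pcna, Mki67, Aurkb and Plk1 overlap.

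Of 30 other replication genes measured in the liver 24 passed the level filter, and 5 fell and none rose. Of all genes tested in the liver 8.78% were lower and 10.4% higher, the background for each list here. The median over the 30 was -0.23. Those that fell included Pola2, a subunit of the primase-polymerase (-0.39 ± 0.09, adjusted p = 0.00989), Mcm10 (-0.78 ± 0.19, adjusted p = 0.0152), the licensing factor Cdt1 (-0.46 ± 0.12, adjusted p = 0.0185) and the clamp loader subunit Rfc3 (-0.38 ± 0.10, adjusted p = 0.0253). Of 35 other mitosis genes, 13 of which passed the level filter, 3 fell, namely Spc25 (-0.67 ± 0.13, adjusted p = 0.00631) and Cenpa (-0.39 ± 0.08, adjusted p = 0.00715) of the kinetochore and centromere and the checkpoint gene Mad2l1 (-0.35 ± 0.11, adjusted p = 0.0434). Inhibitors and brakes changed both ways, 3 up and 3 down among 20. Cdkn1c, the CDK inhibitor p57, rose by 0.43 ± 0.09 (adjusted p = 0.0094), and Cdkn1a, the inhibitor p21, rose by 1.19 ± 0.35 (adjusted p = 0.0347). Lin9, a MuvB subunit, fell by 0.67 ± 0.08 (adjusted p = 0.000265), and Ccng2, an unconventional cyclin linked to cell cycle arrest, fell by 0.62 ± 0.18 (adjusted p = 0.0323). Of 6 other G1 genes the cyclin Ccnd2 fell by 0.54 ± 0.12 (adjusted p = 0.00961) and E2f3 by 0.46 ± 0.13 (adjusted p = 0.0346).

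Several markers of non-parenchymal liver cells also changed, where 8.78% of all genes tested were lower and 10.4% higher. Counts are over measured markers, and some were not tested, as in the enterocyte list, where 7 of 10 passed the level filter. Endothelial markers fell in 4 of 8, led by Cdh5 (-0.75 ± 0.10, adjusted p = 0.000768) and Kdr (-0.63 ± 0.11, adjusted p = 0.00333), with a mean log2 level of 6.06 to 6.21 in OMT and 6.43 to 6.67 in YMT. Of 8 markers of stellate cells and fibroblasts 5 fell and 1 rose, their mean level being 5.81 to 5.92 in OMT and 5.98 to 6.39 in YMT. Of 10 macrophage and Kupffer cell markers 3 fell and 1 rose, with a mean of 6.70 to 6.98 in OMT and 6.75 to 7.01 in YMT. Smooth muscle markers were at 4.86 to 5.02 in OMT and 5.07 to 5.33 in YMT, and 3 of 8 fell. Germinal centre B cell markers were at 4.52 to 4.91 in OMT and 4.95 to 5.31 in YMT, where Bcl6, which hepatocytes also express, fell by 2.39 (adjusted p = 0.00237) and Fas rose by 0.42 (adjusted p = 0.0107). Enterocyte markers, whose mean lay above the median of every liver array, were at 6.82 to 7.30 in OMT and 6.67 to 6.77 in YMT. Of these, 2 of 10 were up and 1 down. Erythroid markers were at 5.12 to 5.28 in OMT and 4.49 to 4.60 in YMT, with 1 of 4 up, and plasma cell markers at 5.50 to 5.91 in OMT and 5.14 to 5.23 in YMT, with 2 of 6 up. The part of these cells in the member differences was not tested.

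An interaction of donor age with tissue could be tested for 16 members, and Cdk2 alone passed, where 11.9% of 11965 genes did. Of all genes tested 4.04% passed with intestine minus liver above 0, the direction of Cdk2, and 7.91% passed with it below 0. Its difference was -0.47 in intestine and -1.06 in liver, so that intestine minus liver was 0.60 ± 0.17 (adjusted p = 0.0297). The labels do not say whether same-numbered intestine and liver arrays came from 1 animal, and the fit treats the 18 arrays as independent. The call was lost with median centring (adjusted p = 0.0529), with the replicate number within each tissue as a block (0.48, adjusted p = 0.0715) and without intestine YMT replicate 2 or 3, liver OMT replicate 5 or liver YMT replicate 1 or 4, at 0.50 to 0.59 and adjusted p-values of 0.052 to 0.0576, and the adjusted p ranged from 0.00791 to 0.0715 over all alternatives. Ccnd1, which fell in both, had a difference of -0.83 in intestine and -0.78 in liver, and the interval of intestine minus liver was -0.52 to 0.42. For the mitotic Aurka, Aurkb and Plk1 intestine minus liver was -0.69, -0.69 and -0.70, with adjusted p-values of 0.089, 0.0951 and 0.133. The other 20 mitotic members, Ccnb2 and Cdc20 included, did not reach the level filter in liver and entered this test only when the filter was dropped. Then Ccnb2 (-0.94 ± 0.25, adjusted p = 0.0335), Cdc20 (-0.81 ± 0.22, adjusted p = 0.0354) and Birc5 (-0.56 ± 0.15, adjusted p = 0.0368) passed with intestine minus liver below 0, as did 3.61% of 22180 genes. In liver their own differences were -0.16, -0.10 and 0.08, and of 9 arrays each lay above the median on at most 1. At such levels a fall in liver could hardly show, so no tissue-specific change is read from these calls.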

How the data were processed

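Gene expression was measured on 18 Affymetrix whole-transcript arrays, 1 per sample. Per the labels' protocols, 250 ng of total RNA per sample was made into biotin-labelled single-stranded cDNA. The authors made the deposited log2 values with RMA (background correction, quantile normalization and probe set summary), and the submitters' processing notes name Expression Console from Affymetrix as the program. The log base was read from the range of the values, 0.3 to 13.5, and whether both tissues were normalized together is not stated in the labels. RMA narrows differences of dim probe sets.

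Of 41345 probe sets, 23521 had exactly 1 gene symbol in the platform annotation (22180 genes), 1814 had several and 16010 were unnamed here. Symbols were updated by gene identifier through a RefSeq table (GRCm38.p6), which held 23328 of the 23521. Where a gene had several probe sets, the one of highest mean stood for it. A gene entered a tissue's test if it exceeded the median of its array on 4 or more of 9 arrays. OMT was compared with YMT per tissue by limma 3.58.1 in R 4.3.3 (lmFit and eBayes), two-sided, with Benjamini-Hochberg adjustment over all genes tested and a threshold of 0.05. The difference between tissues was an interaction term on all 18 arrays. The code of the fits was checked on simulated arrays with independent noise and known changes, from which nothing is read about the members. Standard errors and intervals of members under the level filter come from the fit with no filter, and such members have no adjusted p.

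The members, gene lists, motifs and alternatives were chosen with earlier results of these data known. The sorting of members into S-phase and mitotic classes was made here, and some members could be sorted otherwise. The narrower classes tried left out Ccna2, Top2a, Mki67 and Foxm1 from the mitotic members and Ccne1 and Cdk2 from the S-phase members. By the rule for named genes, values on every array are given for members past the threshold, for the 3 S-phase and 3 mitotic members of smallest p among those tested in each tissue, and for Mki67, Pcna and Ccnd1, with up to 4 genes past the threshold per other list. No arrays held identical values, and no scan dates were used here. Promoters are from a RefSeq table (GRCm38.p6). Figures were drawn with matplotlib 3.10.9. Alternatives were no level filter or one at the 75th percentile, trend and robust moderation, quantile normalization or median centring, other probe set rules, array weights, all 18 arrays in the fit, a threshold of 0.10, the replicate number as a block, and arrays left out.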

Additional observations from a re-analysis of the deposited data

Results flagged for a closer look

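Of 48 groups of values looked at for an array far from the others, 4 held one, and by chance about 1 in 20 groups would. Ccnd1 stood low on OMT intestine replicate 1, at a log2 level of 7.65, where the other OMT intestines lay between 8.13 and 8.29. Rrm2 stood high on OMT liver replicate 4, at 4.89, and so did Aurka, at 4.83. The S-phase mean less the mitotic mean was highest on YMT liver replicate 1, at 1.95. Cdk2 differed between tissues by the interaction test, its difference of OMT minus YMT being higher in intestine than in liver by 0.60. No explanation was weighed for these values.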

How the results depend on the processing

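The count of 3 members past the threshold in the intestine was 5 with array weights and 9 at a threshold of 0.10. It was 17 with all 18 arrays in the fit, which shares 1 estimate of spread between the tissues. The SD of the mitotic mean between arrays was 0.05 in OMT and 0.03 in YMT livers, against 0.28 and 0.32 in intestines. That fit can therefore understate the spread of mitotic members in the intestine. The intestine count was 0 without OMT replicates 1 and 2, and it ran from 0 to 3 with 1 array left out. With the replicate number as a block the count was 5 (Ccna2, Ccnb2, Ccnd1, Cdc25c and Nusap1), with Cdc20 lost. Whether the replicate numbers pair the arrays was not settled. Deviations of same-numbered OMT and YMT arrays correlated at -0.06 to 0.32 in intestine and -0.18 to 0.09 in liver. Those of arrays with different numbers correlated at -0.385 to 0.28 and at -0.2 to 0.264. In each tissue 1 of 4 YMT arrays correlated best with its own number, and so few arrays cannot exclude a pairing. The liver count of 3 was 6 at a threshold of 0.10 and 3 to 4 with 1 array left out, and 3 with the replicate block. With the level filter at the 75th percentile it was 3 (Ccnd1, Cdk2 and, as a rise, Tk1), without Rrm2. With all 18 arrays in the fit it was 4, Tk1 again as a rise. The count of 1 member for the difference between tissues was 4 with no filter (Birc5, Ccnb2, Cdc20 and Cdk2) and at a threshold of 0.10, 2 with the replicate block (Plk1 and Tk1, with Cdk2 lost), 2 with array weights and without OMT replicates 1 and 2, 0 with median centring, and 0 to 4 with 1 array left out. The S-phase minus mitotic shift lay between 0.20 and 0.34 in intestine and between -0.27 and -0.11 in liver with 1 array left out, and at -0.12 in liver without OMT replicates 1 and 2. The sign of small differences turned. Pcna in intestine was at 0.0188 after quantile normalization, 0.0482 with array weights and 0.149 without OMT replicates 1 and 2. With 1 array left out it ran from -0.138 to 0.055, above 0 without OMT replicate 2 or YMT replicate 1. In liver, without OMT replicates 1 and 2, Pcna was at 0.0525 and Plk1 at 0.0075. With 1 array left out Plk1 ran from -0.0693 to 0.00733, at 0 without OMT replicate 2, and Aurka from -0.0125, without OMT replicate 4, to 0.08. Of the values of single named genes under the alternatives, 339 kept their direction and side of the threshold. Of the rest, 34 lost the call, 12 gained one and 10 turned their sign, counting Plk1 at 0 in liver. The cause was not tested.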
